A study of Rattus norvegicus with 8 samples.

Results

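The genes described here encode the surface receptors through which platelets stick to an injured vessel and become activated. Of 9 genes listed by symbol, 8 had a row among the 18090 genes of the deposited table: Gp1ba, Gp9, Gp5, Gp6, Clec1b, Treml1, Itga2b and Itgb3. Gp1bb, which encodes the beta chain of glycoprotein Ib, was not analysed here. RNA was measured by polyA RNA-seq in abdominal aortas of WT rats (genotype label WT, strain and age not given in the sources used here). In 4 samples a filter paper soaked in 10% FeCl3, the iron salt used to provoke thrombosis, had lain around the vessel for 5 min. In 4 controls the paper carried 0.9% saline for 5 min. The samples of each condition were described as biologically independent, all carried the same batch label, and no harvest time is given in the sources used here.

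Platelets are cell fragments without a nucleus, and their RNA comes from the megakaryocytes of the bone marrow that shed them. Under fast flow they are first caught by the glycoprotein Ib-IX-V complex, which binds von Willebrand factor on exposed collagen. Glycoprotein VI then signals from collagen and CLEC-2 signals from podoplanin, and both act through the kinase Syk. These signals switch the integrin alphaIIb-beta3 to a form that binds fibrinogen and links platelets to each other. In a whole piece of aorta these transcripts can arrive with any platelets or megakaryocyte-derived RNA in the sample. The beta3 integrin chain is also made by cells of the vessel wall, where it pairs with the alphav chain. Which cells the transcripts came from was not tested.

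The promoters of 8 of the 9 genes were found in the RefSeq table of build GRCr8, Gp1bb included. Transcription factors of the GATA and ETS families are known to drive megakaryocyte genes, so the 250 bases before each annotated start were searched on both strands for short motifs of both families. The GATA motif was AGATAA, with AGATAG accepted in its place, and the other forms accepted were TGATAA and, with a different last base, TGATAG. The ETS motif was AGGAAG, with CGGAAG accepted in its place. A GATA match was present in 6 of the 8 promoters (Gp1ba, Gp1bb, Gp5, Gp6, Clec1b and Itga2b), against 27.0% of 33469 promoters of the same length. An ETS match was present in 7 of the 8, in all but Treml1, against 39.4% of all promoters. The 6 promoters with a GATA match each also held an ETS match, a combination found in 9.81% of all promoters. The letters TGTGGT, bound by RUNX factors, occurred in 4 of the 8 (14.5% of all) and TGAGTCA, bound by NF-E2, in 1 of the 8 (Gp5; 4.05% of all). These matches are descriptions of letters, and binding was not measured. Below, promoters of the von Willebrand factor binding chain, the collagen receptor, the podoplanin receptor and the alphaIIb chain, which stand for the 4 ligands, are shown 5′ to 3′ along the gene, with GATA and ETS matches of either strand in capitals.
Gp1ba, chr10:55851309-55851558, plus strand: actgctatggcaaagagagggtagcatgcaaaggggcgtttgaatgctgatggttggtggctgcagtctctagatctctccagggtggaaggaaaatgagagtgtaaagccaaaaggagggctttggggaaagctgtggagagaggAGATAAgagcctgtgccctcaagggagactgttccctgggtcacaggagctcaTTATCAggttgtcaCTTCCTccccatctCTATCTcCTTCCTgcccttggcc
Gp6, chr1:78508258-78508507, plus strand: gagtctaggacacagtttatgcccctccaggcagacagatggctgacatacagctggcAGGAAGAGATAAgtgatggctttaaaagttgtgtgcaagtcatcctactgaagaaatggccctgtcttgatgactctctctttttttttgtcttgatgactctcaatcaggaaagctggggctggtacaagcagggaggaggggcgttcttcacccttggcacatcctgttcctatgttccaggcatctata
Clec1b, chr4:164533859-164534108, plus strand: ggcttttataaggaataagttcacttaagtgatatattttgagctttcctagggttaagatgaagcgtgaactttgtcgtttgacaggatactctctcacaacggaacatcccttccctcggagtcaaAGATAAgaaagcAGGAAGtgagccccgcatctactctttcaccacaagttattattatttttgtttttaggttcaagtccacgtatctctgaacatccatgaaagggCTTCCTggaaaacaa
Itga2b, chr10:87925834-87926083, minus strand: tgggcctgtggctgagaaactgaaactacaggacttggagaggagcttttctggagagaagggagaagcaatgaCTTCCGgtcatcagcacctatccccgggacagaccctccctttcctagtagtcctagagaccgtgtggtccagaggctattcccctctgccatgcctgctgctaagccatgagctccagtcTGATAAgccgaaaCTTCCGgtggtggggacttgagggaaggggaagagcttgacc
In the Gp6 promoter the ETS and GATA matches adjoin, 192 to 181 bases before the start. In the Itga2b promoter a GATA match ended 50 bases before the start and an ETS match on the other strand began 42 bases before it. In the Clec1b promoter the GATA match ended 117 and an ETS match began 110 bases before the start.

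Values are the authors' FPKM, in which fragments are divided by the length of the gene and the size of the library, so that levels of different genes can be set side by side per length. Library totals recovered from the FPKM steps were 25768219 to 27384378 fragments after FeCl3 and 24304434 to 30283292 after saline. The 6 haemoglobin genes held 35.97% to 64.9% of all FPKM after FeCl3 and 4.58% to 6.58% in saline replicates 1, 2 and 3, but 43.6% in saline replicate 4. That library stands apart from the other controls for most receptors, whose fold changes are therefore given with and without it. Saline replicate 1 also differed from the other controls, with the highest smooth muscle sum (7 genes, 25940 FPKM, against 5034 to 15410 in the other controls and 3794 to 10850 after FeCl3) and the lowest endothelial sum (8 genes, 25.2 FPKM, against 109 to 285 in the other controls and 173 to 249 after FeCl3). The defining smooth muscle and endothelial markers of the lists were above 0 in all 8 libraries.

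Transcripts of 7 of the 8 receptor genes, all but Itgb3, were higher in every FeCl3 library and in saline replicate 4 than in saline replicates 1, 2 and 3. Their summed level was 179, 269, 145 and 102 FPKM in FeCl3 replicates 1 to 4, against 4.37, 6.93, 9.57 and 216 FPKM in saline replicates 1 to 4. By fragments the 7 genes took 4797 to 11472 after FeCl3, against 189 to 517 in saline replicates 1, 2 and 3 and 8312 in saline replicate 4. Fewer platelets and less RNA per platelet cannot be told apart in such bulk samples. Erythroid genes (15, none at 0 in any library) followed the same split, with sums of 284500 to 612700 FPKM after FeCl3, 22630 to 28320 FPKM in saline replicates 1, 2 and 3 and 285400 FPKM in saline replicate 4.

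**Figure D1:**
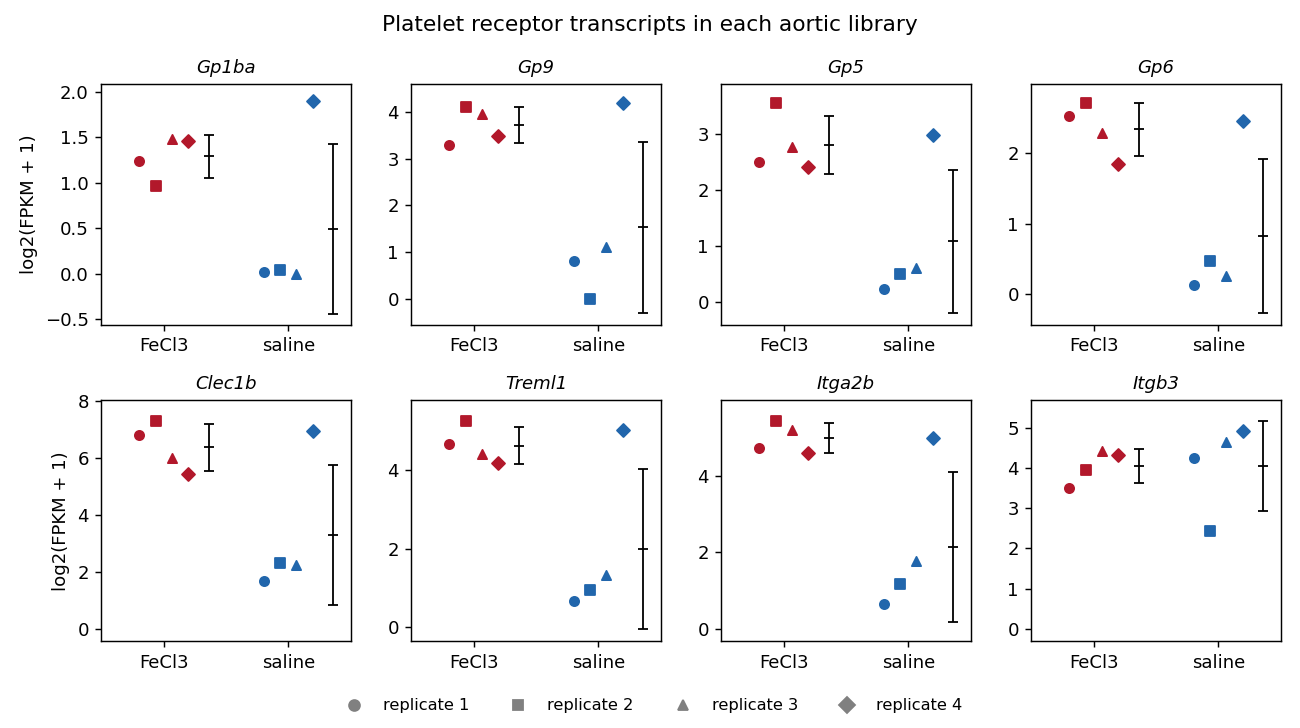
Level of each receptor gene, as log2(FPKM + 1), in the 4 FeCl3 (red) and 4 saline (blue) libraries, with symbols for replicates and black bars for the mean ± SD of each group. For every gene but Itgb3, saline replicate 4 (blue diamond) lies at or above the lowest FeCl3 library and saline replicates 1, 2 and 3 lie below all FeCl3 libraries.

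No receptor gene passed the test with all 8 libraries. In limma on log2(FPKM + 1), 0 of the 8 had a Benjamini-Hochberg adjusted p under 0.05, where 0 of 11921 genes tested (0.00%) did. At an unadjusted p under 0.05, 6 of the 8 were higher after FeCl3, beside 4.42% of all genes tested in that direction. A positive log2 fold change was found in 7 of the 8, beside 29.8% of all genes. With limma voom on the recovered fragments 0 genes passed and 2074 had an unadjusted p under 0.05; 7 of the 8 receptors were among those higher (4.33% of all). Saline replicate 4 was singled out on the values of these same receptors, so results without it are not independent support. No gene was called when any other single library was left out. Without saline replicate 4, 6 of the 8 passed and were higher after FeCl3, beside 1.26% of all genes called higher. These were Gp9, Gp5, Gp6, Clec1b, Treml1 and Itga2b. Of them, Gp5 and Gp6 stayed below 1 FPKM in saline replicates 1, 2 and 3. Both therefore entered that fit through the FeCl3 libraries alone, the group in which they were high. In the same fit 0 of the 8 passed and were lower (0.0839% of all). The groups then did not overlap for 7 of the 8, all but Itgb3, beside 5.65% of all genes higher without overlap. Saline replicate 4 was the highest control for all 8 receptors, as it was for 15.6% of all genes. In 7 of the 8 it lay at or above the lowest FeCl3 library while the other controls lay below it, a pattern of 4.59% of all genes. Without both saline replicates 1 and 4, a choice made after seeing the data, 4 passed (Gp9, Clec1b, Treml1 and Itga2b), beside 0.428% of all genes. The median log2 fold change of the 8 genes was 1.95, where the median of all genes tested was -0.25.

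The von Willebrand factor receptor held the least abundant transcript per length, Gp1ba, beside the more abundant Gp9 and Gp5. Gp1ba encodes the chain that holds the binding site for von Willebrand factor. It measured 1.37, 0.955, 1.80 and 1.75 FPKM in FeCl3 replicates 1 to 4, against 0.0123, 0.0307, 0 and 2.73 FPKM in saline replicates 1 to 4. Saline replicate 4 thus had the highest Gp1ba of all 8 libraries. These values rested on 96, 70, 124 and 124 fragments after FeCl3 and on 1, 2, 0 and 185 fragments after saline, and the count of 0 in saline replicate 3 allows up to 0.0373 FPKM (3 fragments; counting error only). The log2 fold change was 0.80 ± 0.44 SE (limma adjusted p = 0.376), and 1.27 ± 0.24 SE without saline replicate 4 (adjusted p = 0.0530). It depended on the pseudocount, being 2.59 with 0.1 and 4.34 with 0.01 (limma adjusted p of 0.293 and 0.306), and with voom it was 4.65, the largest of all 8 receptors (adjusted p = 0.24). With pseudocounts of 0.1 and 0.01 the log2 fold change was 3.38 and 4.27 for Gp9, 2.77 and 3.01 for Gp5, and 2.80 and 3.21 for Gp6, so the order of these fold changes depends on the pseudocount. In GRCr8 Gp1ba overlaps Chrne, Slc25a11 and a ribosomal pseudogene, and the sources used here do not state whether counting used strand. Whether fragments in the overlap were added to Gp1ba or lost from it is therefore not known.

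Gp9 encodes the small chain that the complex needs to reach the surface. It measured 8.82, 16.2, 14.6 and 10.3 FPKM in FeCl3 replicates 1 to 4, against 0.753, 0, 1.17 and 17.3 FPKM in saline replicates 1 to 4. The groups overlapped only through saline replicate 4, which again was the highest of all libraries. The 0 in saline replicate 2 allows up to 0.217 FPKM. Its log2 fold change was 2.19 ± 0.80 SE (limma adjusted p = 0.259), and 3.07 ± 0.35 SE without saline replicate 4 (adjusted p = 0.0115). Gp5 encodes glycoprotein V, the chain of the complex that thrombin cleaves. It measured 4.64, 10.6, 5.82 and 4.29 FPKM after FeCl3, against 0.179, 0.409, 0.526 and 6.85 FPKM after saline. FeCl3 replicate 2 was highest, and saline replicate 4 lay inside the FeCl3 range. The fitted log2 fold change was 1.72 ± 0.59 SE (limma adjusted p = 0.258), and 2.35 ± 0.33 SE without saline replicate 4 (adjusted p = 0.0206). Gp5 entered the latter fit through the FeCl3 libraries alone. Although their products sit in 1 complex, the 3 transcripts differed in level: Gp9 exceeded Gp1ba 5.87 to 17.0 times per length after FeCl3 and 6.32 times in saline replicate 4.

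The receptors that signal through tyrosine motifs held both the most and some of the least abundant transcripts. Gp6 encodes the collagen receptor glycoprotein VI. It measured 4.75, 5.52, 3.85 and 2.58 FPKM in FeCl3 replicates 1 to 4, against 0.0913, 0.383, 0.193 and 4.47 FPKM in saline replicates 1 to 4. Saline replicates 1, 2 and 3 lay below every FeCl3 library and saline replicate 4 within their range. Its log2 fold change was 1.51 ± 0.51 SE (limma adjusted p = 0.257), and 2.05 ± 0.28 SE without saline replicate 4 (adjusted p = 0.0195). Gp6 entered the latter fit through the FeCl3 libraries alone.

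Clec1b encodes CLEC-2, the receptor for podoplanin. It was the most abundant receptor transcript in each FeCl3 library, with 110, 156, 62.8 and 42.3 FPKM in FeCl3 replicates 1 to 4, against 2.18, 3.97, 3.74 and 122 FPKM in saline replicates 1 to 4. FeCl3 replicates 3 and 4 were lower than FeCl3 replicates 1 and 2, and saline replicate 4 lay between FeCl3 replicates 1 and 2. The log2 fold change was 3.09 ± 1.084 SE (limma adjusted p = 0.258), and 4.30 ± 0.46 SE without saline replicate 4 (adjusted p = 0.01). Treml1 encodes TLT-1, a receptor that is stored in platelet alpha granules and brought to the surface on activation. It measured 24.4, 37.6, 20.3 and 17.2 FPKM after FeCl3, against 0.593, 0.907, 1.52 and 31.9 FPKM after saline. The fitted log2 fold change was 2.64 ± 0.89 SE (limma adjusted p = 0.255), and 3.66 ± 0.33 SE without saline replicate 4 (adjusted p = 0.00892). Of the values for both genes, those of saline replicate 4 were inside the FeCl3 range and those of the other controls below it.

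Both chains of the fibrinogen integrin were measured, and their patterns differed. Itga2b encodes the alphaIIb chain, known from megakaryocytes and platelets. It measured 25.7, 42.6, 36.02 and 23.4 FPKM in FeCl3 replicates 1 to 4, against 0.563, 1.24, 2.42 and 31.2 FPKM in saline replicates 1 to 4. Saline replicate 4 lay inside the FeCl3 range and the other controls far below it. Its log2 fold change was 2.85 ± 0.85 SE (limma adjusted p = 0.245, unadjusted p = 0.00866), and 3.81 ± 0.35 SE without saline replicate 4 (adjusted p = 0.00892). Itgb3 encodes the beta3 chain. It measured 10.4, 14.5, 20.3 and 19.1 FPKM after FeCl3, against 17.9, 4.41, 23.9 and 29.1 FPKM after saline. The groups overlapped over most of their range, and its log2 fold change was -0.01 ± 0.52 SE (limma adjusted p = 0.996), with the sign depending on scaling and on the libraries kept.

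**Figure D2:**
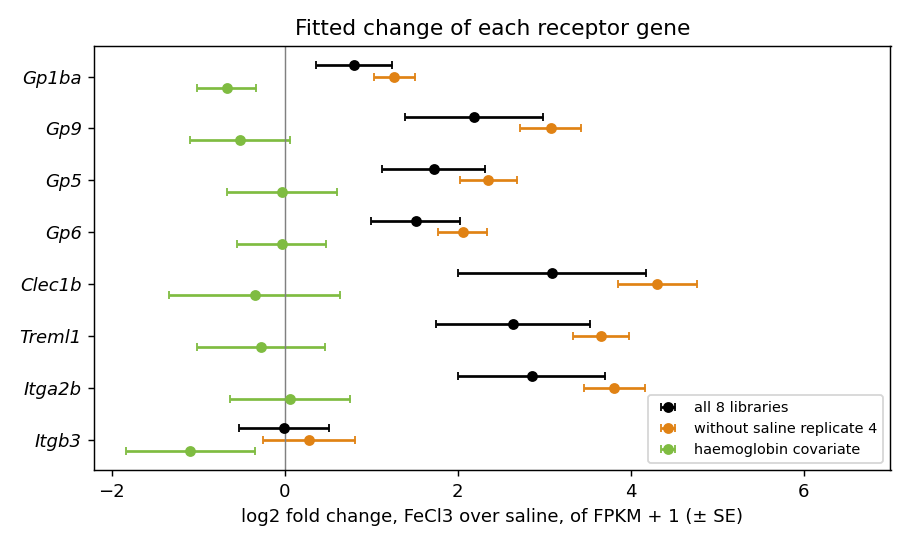
Fitted log2 fold change of FPKM + 1, FeCl3 over saline, with SE, for each receptor gene: with all 8 libraries (black), without saline replicate 4 (orange) and with the haemoglobin share of each library as a covariate (green). The 7 genes other than Itgb3 lie between 0.80 and 3.09 with all libraries, between 1.27 and 4.30 without saline replicate 4, and between -0.67 and 0.06 with the covariate.

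The libraries rich in haemoglobin RNA (all FeCl3 libraries and saline replicate 4) were those rich in the 7 receptors other than Itgb3. Among the FeCl3 libraries the order differed, since replicate 2 had the lowest haemoglobin share (35.97%) and the highest receptor sum (269 FPKM). With the log2 haemoglobin share of summed FPKM as a covariate, which itself overlaps with the groups, the log2 fold changes of the 7 genes other than Itgb3 ran from -0.67 (Gp1ba) to 0.06 (Itga2b), and that of Itgb3 was -1.09. None passed in that fit. The ratio of the summed FPKM of the 7 genes to that of 6 haemoglobin genes does not depend on the library total. Its log2 was -11.27, -10.04, -12.03 and -11.73 in FeCl3 replicates 1 to 4, against -12.66, -11.67, -11.39 and -10.36 in saline replicates 1 to 4. The groups overlapped, with a difference of 0.25 (exact two-sided permutation p = 0.714, adjusted p = 0.714 over 3 ratios, where 4 against 4 can reach 0.0286), and of 0.64 without saline replicate 4. FeCl3 replicate 2 and saline replicate 4 had the most receptor RNA per haemoglobin RNA.

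Set against Pf4, a chemokine of platelet granules, the receptors also overlapped between groups. The log2 ratio of the summed 7 genes to Pf4 was -2.55, -3.17, -3.17 and -3.18 in FeCl3 replicates 1 to 4, against -2.02, -2.42, -3.26 and -2.87 in saline replicates 1 to 4. The difference was -0.38 (exact two-sided permutation p = 0.257, adjusted p = 0.386 over 3 ratios), and -0.45 without saline replicate 4. Pf4 itself measured 1054, 2429, 1305 and 922 FPKM after FeCl3, against 17.8, 37.0, 91.9 and 1580 FPKM after saline. A p that misses the threshold does not show that the ratios were alike.

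The ratio of the beta3 to the alphaIIb transcript separated the groups. Itgb3 had 0.405, 0.341, 0.564 and 0.816 times the FPKM of Itga2b in FeCl3 replicates 1 to 4, against 31.9, 3.57, 9.87 and 0.930 times in saline replicates 1 to 4. Every FeCl3 library lay below every saline library, although saline replicate 4 was close to FeCl3 replicate 4. On the log2 scale with a pseudocount of 0.1 FPKM the mean was -0.99 ± 0.55 in FeCl3 aortas and 2.42 ± 2.08 in saline aortas (SD, n = 4 each). The groups differed by -3.41 (exact two-sided permutation p = 0.0286, the smallest that 4 against 4 can give). Over the 3 ratios the adjusted exact permutation p = 0.0858 does not pass. Without saline replicate 4 the difference was -4.25.

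The alphav chain, Itgav, the partner of beta3 on wall cells, measured 19.6, 28.3, 26.9 and 25.7 FPKM after FeCl3, against 77.4, 22.9, 53.6 and 30.02 FPKM after saline. Itgb3 was thus 0.513 to 0.755 times Itgav per length after FeCl3, against 0.193, 0.232 and 0.446 times in saline replicates 2, 1 and 3 and 0.968 times in saline replicate 4. For Itgav the log2 fold change was -0.71 ± 0.37 SE (limma adjusted p = 0.361), -0.41 without saline replicate 1 and -1.44 with FPKM rescaled to TPM, where it passed (adjusted p = 0.0482) and the median of all genes was -0.90. The smooth muscle sum was 3794, 7036, 10850 and 10570 FPKM in FeCl3 replicates 1 to 4, the same order as Itgb3. In saline replicates 1 to 4 it was 25940, 5034, 15410 and 9868 FPKM, which is not the order of Itgb3. Saline replicate 2 was lowest in both, but Itgb3 was highest in saline replicate 4. The part of wall cell content in the Itgb3 values was not tested.

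**Figure D3:**
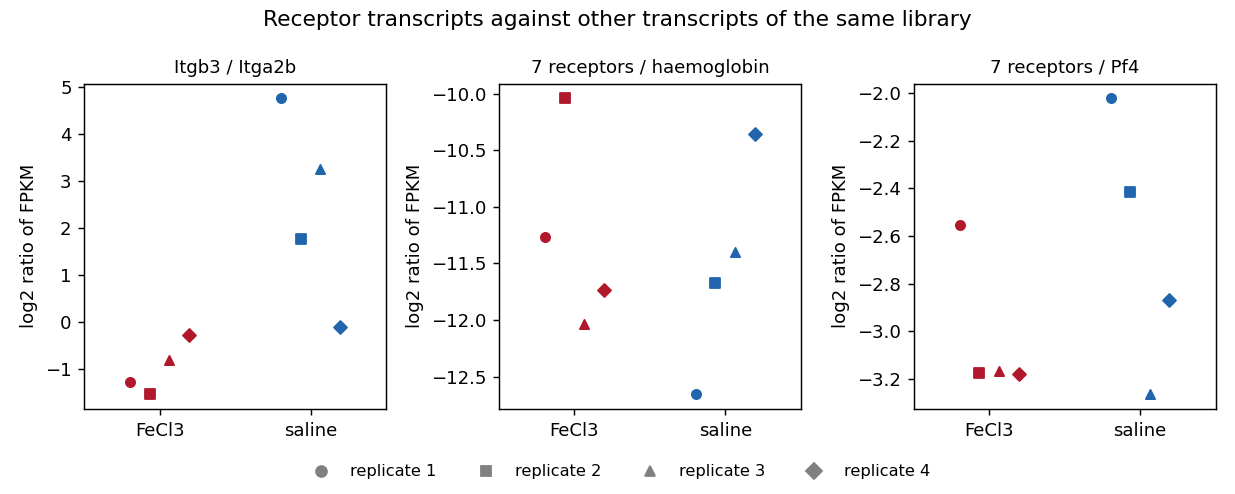
Log2 ratios of FPKM in each FeCl3 (red) and saline (blue) library: Itgb3 to Itga2b, the 7 other receptor genes summed to 6 haemoglobin genes summed, and the same 7 genes to Pf4, with symbols for replicates. The groups do not overlap for Itgb3 to Itga2b (-1.55 to -0.29 after FeCl3 and -0.10 to 4.77 after saline) and overlap in the other panels.

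The order of levels per length was similar in all FeCl3 libraries. Clec1b ranked first and Itga2b second in all 4, and Gp1ba last in all 4. Between them, by FPKM range over the FeCl3 libraries, came Treml1 (17.2 to 37.6), Itgb3 (10.4 to 20.3), Gp9 (8.82 to 16.2), Gp5 (4.29 to 10.6) and Gp6 (2.58 to 5.52). Every neighbouring pair in this order overlapped in range, Clec1b and Itga2b by a narrow margin (lowest Clec1b 42.3, highest Itga2b 42.6), except that Gp6 and Gp1ba did not. Itgb3 ranked first in saline replicates 1, 2 and 3, ahead of Clec1b, and Clec1b first in saline replicate 4.

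In the make-up of the 7 transcripts other than Itgb3, the shares of the 3 most abundant (Clec1b, Itga2b and Treml1) covered overlapping ranges in both groups. Treml1 made up 13.6% to 16.9% of their FPKM sum in FeCl3 aortas and 13.1% to 15.9% in saline aortas. Clec1b made up 41.6% to 61.2% after FeCl3 and 39.0% to 57.2% after saline. Itga2b made up 14.3% to 24.8% after FeCl3 and 12.9% to 25.3% after saline. The shares of Gp5 were 2.59% to 4.21% after FeCl3 and 3.17% to 5.89% after saline. Gp6 made up 2.05% to 2.65% after FeCl3, against 2.09%, 5.52%, 2.01% and 2.07% in saline replicates 1 to 4. Gp9 made up 4.92% to 10.1% after FeCl3 and 0% to 17.2% after saline, where saline replicates 1, 2 and 3 held only 13, 0 and 20 fragments of it. Gp1ba made up 0.355% to 1.72% after FeCl3, against 0.282%, 0.443%, 0% and 1.26% in saline replicates 1 to 4, on at most 2 fragments in the first 3 of these.

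Within each group the libraries differed in the ratio of Clec1b to Itga2b, a pair singled out after its values were seen. It was 4.27, 3.66, 1.74 and 1.81 in FeCl3 replicates 1 to 4, against 3.87, 3.21, 1.54 and 3.90 in saline replicates 1 to 4. FeCl3 replicates 3 and 4 and saline replicate 3 were therefore lower than the rest. The summed level of 10 monocyte and macrophage markers was 801, 723, 216 and 322 FPKM in FeCl3 replicates 1 to 4, against 9.74, 110, 55.4 and 525 FPKM in saline replicates 1 to 4, with 1 marker at 0 in saline replicate 1 and none at 0 elsewhere. The part of these cells in the Clec1b values was not tested.

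**Figure D4:**
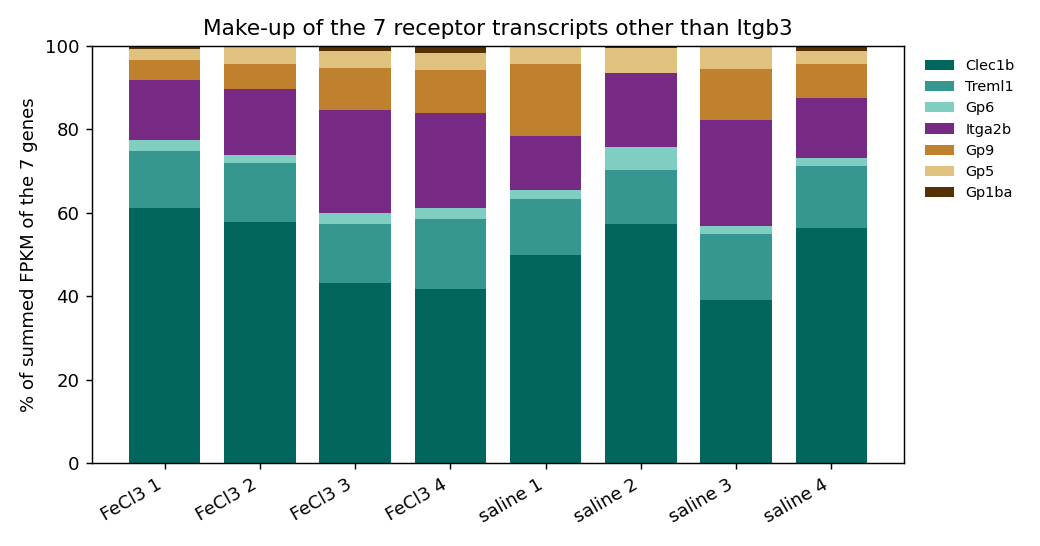
Share of each of the 7 receptor genes other than Itgb3 in their summed FPKM, as stacked bars for the 4 FeCl3 and the 4 saline libraries. Clec1b is the largest block in every library, from 39.0% in saline replicate 3 to 61.2% in FeCl3 replicate 1, and Treml1 stays between 13.1% and 16.9%.

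Molecules that relay signals from glycoprotein VI and CLEC-2 all had positive fold changes with all 8 libraries, beside 29.8% of all genes. Without saline replicate 1 the log2 fold change was below 0 for Vav3 (-0.19) and Fyn (-0.11). All 14 genes of this list were tested, with a median log2 fold change of 1.26, and 8 of 14 had an unadjusted p under 0.05 and were higher (4.42% of all genes). None passed over all genes, and 4 did without saline replicate 4 (Fcer1g, Btk, Rac2 and Grap2), beside 1.26% of all genes. Fcer1g encodes the Fc receptor gamma chain that carries the signal of glycoprotein VI. It measured 65.8, 61.7, 34.6 and 31.6 FPKM after FeCl3, against 1.079, 8.13, 4.75 and 60.2 FPKM after saline (log2 fold change 2.38 ± 0.89 SE, limma adjusted p = 0.264; 3.30 without saline replicate 4, adjusted p = 0.0307). Gp6 amounted to 0.0722 to 0.111 times Fcer1g per length after FeCl3 and 0.0405 to 0.0846 times after saline.

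Rac2, a small GTPase of blood cells, and Grap2, an adaptor, had the largest fold changes of the list, 3.19 ± 0.96 SE and 3.17 ± 0.85 SE (limma adjusted p = 0.245 for each). Without saline replicate 4 these were 4.08 for Rac2 and 4.09 for Grap2 (limma adjusted p of 0.0394 and 0.00905). Rac2 measured 105 FPKM in FeCl3 replicate 4 and 16.1 to 39.4 FPKM in the other FeCl3 libraries, against 0.0226 to 25.9 FPKM after saline. Lat, an adaptor shared by platelets and T cells, was the only gene of the list whose groups did not overlap (5.29 to 57.1 FPKM after FeCl3 and 0.167 to 4.62 FPKM after saline), as 1.06% of all genes did in that direction. FeCl3 replicate 4 also held the highest sum of 9 T and NK cell markers, 419 FPKM against 33.4 to 70.1 FPKM in the other FeCl3 libraries and 0.192 to 46.5 FPKM after saline, and 5 of the 9 markers were at 0 in saline replicate 1. Many genes of this list are also made by such cells, and their part in its values was not tested.

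Of 10 genes that carry out or control the turn of integrins to their binding form, 7 were positive (29.8% of all genes). Their median was 0.41, and 0 passed. Fermt3, kindlin-3 of blood cells, averaged 12.2 ± 5.63 FPKM in FeCl3 aortas and 3.73 ± 4.53 FPKM in saline aortas (SD, n = 4 each). The fitted log2 fold change was 1.86 ± 0.61 SE (limma adjusted p = 0.251). For Apbb1ip, the adaptor RIAM, it was 1.57 ± 0.59 SE (limma adjusted p = 0.264). Both had an unadjusted p under 0.05 and were higher (4.42% of all genes). Of the list only Fermt3 passed without saline replicate 4 (limma adjusted p = 0.0493), beside 1.26% of all genes called higher. Fermt2, the kindlin of wall cells, averaged 78.9 ± 9.46 FPKM in FeCl3 aortas and 186 ± 158 FPKM in saline aortas (SD, n = 4 each). Its log2 fold change was -0.90 ± 0.48 SE (limma adjusted p = 0.362). Saline replicate 1 alone held 418 FPKM of Fermt2, and without it the log2 fold change was -0.41.

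Ligands of the receptors, most of them proteins of the vessel wall, did not pass either. Of 12 genes 9 were tested, 3 with a positive fold change (29.8% of all genes) and a median of -0.31, and 0 had an unadjusted p under 0.05. The fibrinogen chains Fga, Fgb and Fgg, made in liver, were the 3 below the filter on low values (at most 0.135 FPKM in any library). Vwf measured 10.1, 16.2, 32.9 and 33.1 FPKM after FeCl3, against 0.942, 5.57, 13.2 and 18.1 FPKM after saline (log2 fold change 1.501 ± 0.71 SE, limma adjusted p = 0.319; 0.84 without saline replicate 1). Pdpn, podoplanin, the ligand of CLEC-2, measured 7.97, 2.14, 0.0631 and 1.103 FPKM after FeCl3, against 0.0358, 5.31, 4.04 and 3.49 FPKM after saline (log2 fold change -0.31 ± 0.75 SE, limma adjusted p = 0.848). Its values overlapped over the whole range. Col3a1, a collagen, was the most abundant ligand, at 1115 ± 505 FPKM in FeCl3 aortas and 1090 ± 465 FPKM in saline aortas (SD, n = 4 each). For Fn1, fibronectin, the log2 fold change was -0.90 ± 0.68 SE (limma adjusted p = 0.506), and -0.44 without saline replicate 1.

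Receptors and phosphatases that restrain platelets were of mixed sign, with 5 of 8 tested genes positive (29.8% of all genes), a median of 0.70 and 0 passing. Mpig6b, an inhibitory receptor of megakaryocytes and platelets, Cd300a and the phosphatase Ptpn6 had an unadjusted p under 0.05 and were higher (4.42% of all genes). Mpig6b measured 4.84, 2.47, 4.39 and 1.72 FPKM after FeCl3, against 0, 0.123, 0.496 and 3.85 FPKM after saline (log2 fold change 1.30, limma unadjusted p = 0.0333). Ptpn11, the phosphatase SHP-2, was the only tested gene of the list whose groups did not overlap. It measured 22.95 to 26.2 FPKM after FeCl3 and 37.1 to 59.2 FPKM after saline (log2 fold change -0.86, limma unadjusted p = 0.00252), where 8.75% of all genes lay apart in that direction. For Pecam1, shared with endothelium, the log2 fold change was 1.31 ± 0.79 SE (limma adjusted p = 0.413), and 0.41 without saline replicate 1.

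Integrin chains found on other cells, whether or not platelets share them, had a median of -0.50, with 2 of 7 tested positive and 0 passing. Of all genes 29.8% were positive, so this count is near the background. Itgb2, the beta2 chain of white cells, averaged 19.1 ± 7.28 FPKM in FeCl3 aortas and 5.36 ± 8.41 FPKM in saline aortas (SD, n = 4 each). The fitted log2 fold change was 2.45 ± 0.77 SE (limma adjusted p = 0.248), and it passed without saline replicate 4 (adjusted p = 0.0177). Itgb1 and Itga5 encode the chains of the fibronectin receptor. The log2 fold change was -0.79 for Itgb1 (limma adjusted p = 0.354) and -1.44 for Itga5 (adjusted p = 0.331). Without saline replicate 1, which held 172 FPKM of Itga5 and 768 FPKM of Itgb1, it was -0.43 for Itgb1 and -0.71 for Itga5. With TPM Itgb1 passed, at -1.53 (limma adjusted p = 0.048).

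Many other platelet and megakaryocyte genes showed the split of libraries seen for the receptors. Of 20 genes 18 were tested, 17 with a positive fold change (29.8% of all genes) and a median of 1.81, and 12 had an unadjusted p under 0.05, all higher (4.42% of all). None passed with all libraries and 9 did without saline replicate 4, all higher (1.26% of all). Rgs18, a regulator of G protein signalling in platelets, measured 19.9 to 49.98 FPKM after FeCl3, against 0.513 to 2.68 FPKM in saline replicates 1, 2 and 3 and 49.4 FPKM in saline replicate 4. P2rx1, an ATP receptor of platelets and smooth muscle, did not show the split, with 35.4 to 93.6 FPKM after FeCl3 and 33.2 to 111 FPKM after saline. Mmrn1, an alpha granule protein, overlapped too, with 3.30 to 16.4 FPKM after FeCl3 and 9.57 FPKM in saline replicate 2. Nfe2, a transcription factor of megakaryocytes and red cell precursors, was the only tested one whose groups did not overlap (1.06% of all genes), with 24.4 to 47.5 FPKM after FeCl3 and 0.659 to 23.1 FPKM after saline (log2 fold change 3.25 ± 0.79 SE, limma adjusted p = 0.245; 4.15 without saline replicate 4, adjusted p = 0.00892).

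**Figure D5:**
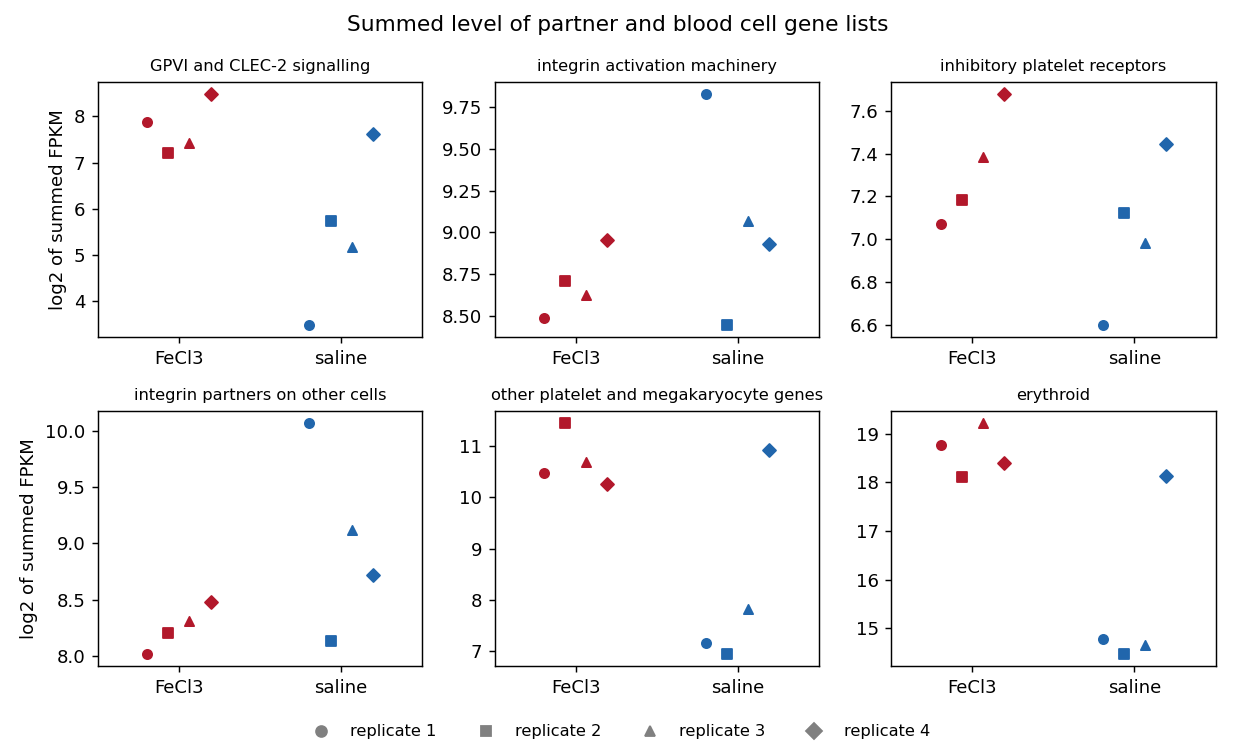
Log2 of the summed FPKM of 6 gene lists in each FeCl3 (red) and saline (blue) library, with symbols for replicates. In the list of other platelet and megakaryocyte genes, where Pf4 is the largest term in the FeCl3 libraries and in saline replicate 4, and in the erythroid list, saline replicate 4 lies among or just beside the FeCl3 libraries and saline replicates 1, 2 and 3 far below; the integrin activation list and the integrin partner list overlap between groups.

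Over all genes tested, those with a profile most like the mean of the 7 receptors were named by the root mean square difference of centred log2(FPKM + 1) values over the 8 libraries. The nearest was Ly6g6f, at 0.18, an immunoglobulin-like membrane protein encoded near the major histocompatibility genes. Others among the nearest were Tubb1, the beta1 tubulin of the platelet's marginal band (0.25), Cd300c2, a receptor of the CD300 family (0.28), and Rec114 (0.34). Ly6g6f measured 8.36, 8.19, 7.00 and 3.99 FPKM after FeCl3, against 0, 0.0341, 0.386 and 9.13 FPKM after saline. Rec114, named for its part in meiotic recombination, measured 5.75 to 11.3 FPKM after FeCl3, against 0.351 to 0.909 FPKM in saline replicates 1, 2 and 3 and 7.91 FPKM in saline replicate 4. Among the receptors themselves the distance from their mean ran from 0.33 (Gp9 and Gp5) to 0.86 (Gp1ba), and it was 1.42 for Itgb3. The limma log2 fold changes of these 4 genes were 1.97, 2.45, 1.81 and 1.95 in the order named, with adjusted p of 0.259, 0.251, 0.291 and 0.245. Without saline replicate 4 they were 2.76, 3.34, 2.67 and 2.58. All 4 then passed (limma adjusted p of 0.0108, 0.00905, 0.0126 and 0.0109), beside 1.26% of all genes called higher. They were picked for a profile like that of the receptors over the same libraries, so this result is not independent support. All 4 also stayed below 1 FPKM in saline replicates 1, 2 and 3 and entered that fit through the FeCl3 libraries alone.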

How the data were processed

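The deposited table gives each gene's FPKM in each library, as the authors computed it. Tools named in the submitters' processing notes are fastp, HISAT2 and HTSeq, with build mRatBN7.2; versions, annotation and gene lengths are not given in the sources used here. Per the labels' protocols, polyA libraries were made with a VAHTS kit. Columns were matched to samples by title, and replicates are numbered in sample order. Library totals, gene lengths and whole fragments were recovered from the steps of the FPKM values (99.97% of 18090 genes came out whole within 0.02; tested on simulated data); 2 genes, no receptor among them, had their fragments doubled to reach the totals. The 11921 genes that reached 1 FPKM in 4 or more of the 8 libraries entered limma 3.58.1 (R 4.3.3) on the log2(FPKM + 1) scale (trend, two-sided, FeCl3 over saline, Benjamini-Hochberg, threshold 0.05), a scale that understates changes of low genes. All 8 receptors with a row passed this filter, Gp1ba through 3 FeCl3 libraries and saline replicate 4. Gp5 and Gp6 reached 1 FPKM only in the 4 FeCl3 libraries and saline replicate 4. The fit without saline replicate 4 kept the same genes, so both entered it through the FeCl3 libraries alone. The limma p-values set the difference between the group means against the spread among these samples, and cover no variation between experiments. Ratios were compared by exact permutation tests. Partner genes named are, per list, those passing or else the 2 largest fold changes and the most abundant, with Vwf, Pdpn, Fcer1g, Fermt3, Itgav and Pf4 always, and the 5 nearest profiles, of which 1 is not reported here; Lat, Ptpn11, Mpig6b, Cd300a, Btk, Rgs18, P2rx1, Mmrn1, Fga, Fgb and Fgg were added after their values were seen. The receptors and lists were chosen with earlier results of these data known. Alternatives were pseudocounts, filters, scalings, limma without trend, voom, a haemoglobin covariate and each library left out. Promoters are RefSeq's (GRCr8), a build other than that of the table. Figures used matplotlib 3.10.9 in Python 3.11.15.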

Additional observations from a re-analysis of the deposited data

Results flagged for a closer look

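In 7 of the 8 receptor genes saline replicate 4 lay far above the other controls by Dixon's criterion for 4 samples, with 2.73 FPKM of Gp1ba, 17.3 of Gp9, 6.85 of Gp5, 4.47 of Gp6, 122 of Clec1b, 31.9 of Treml1 and 31.2 of Itga2b. FeCl3 replicate 1 lay apart from the other FeCl3 libraries in the log2 ratio of the 7 summed receptors to Pf4, at -2.55. In all 22 groups of 4 values were checked and 8 were marked, where chance marks about 1 in 20; the 7 receptor values come from a single library and are not independent.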

How the results depend on the processing

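No paired analysis was possible because the labels of the groups share fewer than 2 sample numbers. The count of genes called was 0 in all alternatives run except 3288 with FPKM rescaled to TPM (65 higher, 3223 lower, where the median log2 fold change of all genes was -0.90 and Itga2b was the only receptor called), 160 without saline replicate 4 and 51 without saline replicates 1 and 4; with a library left out it ran from 0 to 160. With the haemoglobin covariate the log2 fold change took the other sign for Gp1ba (-0.67), Gp9 (-0.52), Gp5 (-0.0303), Gp6 (-0.0347), Clec1b (-0.35), Treml1 (-0.28), Fcer1g (-0.11), Apbb1ip (-0.0042), Col3a1 (-0.60), Pf4 (-0.0685), Ly6g6f (-0.40), Tubb1 (-0.15), Cd300c2 (-0.64) and Rec114 (-0.0246). The SE was 0.34 for Gp1ba, 0.58 for Gp9, 0.63 for Gp5, 0.52 for Gp6, 0.99 for Clec1b and 0.74 for Treml1. Of these receptors all but Gp1ba thus lay within their SE of 0. The cause was not tested. Itgb3 was 0.0191 with a pseudocount of 0.1, 0.0221 with 0.01, 0.21 with median-of-ratios scaling, 0.22 with quantile normalization, -0.70 with TPM, 0.29 with haemoglobin left out of the total, 0.0143 with voom, 0.51 without saline replicates 1 and 4, and between -0.55 and 0.28 when single libraries were removed. Col3a1 reversed to -0.71 with TPM, -0.26 with quantile normalization and at lowest -0.24 (highest 0.28) with a library left out, and Pdpn ran from -0.89 to 0.16 there; without saline replicates 1 and 4 Col3a1 was 0.46 and Pdpn -1.002. The difference in the ratio of Itgb3 to Itga2b ran from -4.25 to -2.62 with a library left out, where 3 against 4 cannot pass (exact permutation p = 0.0571). The ratio of receptors to haemoglobin ran from -0.16 to 0.64 and was -0.0335 with the mean of log2 values. Depth limits Gp1ba and Gp9 in saline replicates 1, 2 and 3.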
